A study of Mus musculus with 3 samples.

Results

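The loci of 5 genes of DNA methylation, Tet1, Tet2, Dnmt3a, Dnmt3b and Dnmt3l, were examined for peaks of FLAG-tagged Tex10 in mouse embryonic stem (ES) cells. A peak belonged to a locus when it overlapped the window set for that gene on the mm9 genome by at least 1 bp. The windows were chosen by where peaks of this same list lie, so the number, position and score of the peaks in them are a description and were not tested. They held 16 of the 5189 peaks deposited for the FLAG library, of which 8 lay in the Tet1 window, 5 in the Tet2 window, 2 in the Dnmt3a window, 0 in the Dnmt3b window and 1 in the Dnmt3l window. No mm9 gene annotation was used, so that each window holds its gene was not tested, and no peak was assigned to an exon, an intron, a promoter or a neighbouring gene.

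The series holds 3 libraries, each alone in its group: a chromatin immunoprecipitation (ChIP) with an antibody to FLAG, a ChIP with normal mouse IgG, and input DNA. All came from J1 cells of strain 129SV, grown in serum with leukaemia inhibitory factor, that carry an ectopic 3xFlag-Tex10 transgene brought in on a piggybac transposon vector (the T10F10 line). The controls carry the transgene as well, and cells without the tagged protein were not analysed here. The tagged Tex10 came from this transgene, an extra copy besides the cell's own gene, and the labels do not say whether T10F10 is a single clone. Only the peak list of the FLAG library was used, its depth is unknown, and there is no replicate, so no value below has an error between experiments.

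Cytosines of CpG dinucleotides are methylated anew by Dnmt3a and Dnmt3b, and Dnmt3l, which has no catalytic activity of its own, binds to them and stimulates them. Tet1 and Tet2 work in the opposite direction: they oxidise 5-methylcytosine to 5-hydroxymethylcytosine, the first step of a route to the unmethylated base. ES cells express all of these genes. Tex10 is a nuclear protein that the title of the series links to super-enhancers, large enhancer domains at genes that set cell identity.

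The bases upstream of the annotated starts of these genes are shown for their CpG, the type of site on which the encoded enzymes act. The loci differ in these bases as well as in their peaks. Whether the enzymes act at these starts was not tested. They come from RefSeq on GRCm38.p6, a later build than that of the peaks, so these coordinates cannot be set against the peak positions given further on. Each run is the 250 bases before a start, 5′ to 3′ on the strand of the gene, with every CpG in capitals. The Tet1 sequence lies at chr10:62887325-62887574 (minus strand), that of Tet2 at chr3:133544391-133544640 (minus), those of the first and the last of 3 Dnmt3a starts at chr12:3806730-3806979 and chr12:3891494-3891743 (plus), and that of Dnmt3b at chr2:153649199-153649448 (plus).
Tet1: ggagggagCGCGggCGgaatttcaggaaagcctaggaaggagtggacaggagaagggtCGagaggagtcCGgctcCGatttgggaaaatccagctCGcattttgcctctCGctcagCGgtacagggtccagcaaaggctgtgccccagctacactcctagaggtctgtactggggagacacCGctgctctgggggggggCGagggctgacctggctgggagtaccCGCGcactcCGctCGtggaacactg
Tet2: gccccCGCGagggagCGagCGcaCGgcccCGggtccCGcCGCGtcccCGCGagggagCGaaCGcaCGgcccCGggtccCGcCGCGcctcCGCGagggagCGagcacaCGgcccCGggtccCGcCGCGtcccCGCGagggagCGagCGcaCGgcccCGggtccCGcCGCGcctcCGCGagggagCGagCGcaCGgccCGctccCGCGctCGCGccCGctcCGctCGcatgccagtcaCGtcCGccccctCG
Dnmt3a, first start: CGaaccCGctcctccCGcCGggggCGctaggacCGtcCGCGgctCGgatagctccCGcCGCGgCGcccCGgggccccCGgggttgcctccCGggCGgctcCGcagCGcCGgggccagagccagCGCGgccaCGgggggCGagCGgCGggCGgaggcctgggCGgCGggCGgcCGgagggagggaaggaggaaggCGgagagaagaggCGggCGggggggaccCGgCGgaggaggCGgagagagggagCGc
Dnmt3a, last start: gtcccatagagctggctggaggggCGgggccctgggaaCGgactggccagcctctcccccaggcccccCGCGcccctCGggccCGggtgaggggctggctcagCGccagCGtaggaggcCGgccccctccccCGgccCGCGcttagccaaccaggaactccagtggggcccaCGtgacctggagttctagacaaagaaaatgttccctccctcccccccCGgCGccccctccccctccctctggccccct
Dnmt3b: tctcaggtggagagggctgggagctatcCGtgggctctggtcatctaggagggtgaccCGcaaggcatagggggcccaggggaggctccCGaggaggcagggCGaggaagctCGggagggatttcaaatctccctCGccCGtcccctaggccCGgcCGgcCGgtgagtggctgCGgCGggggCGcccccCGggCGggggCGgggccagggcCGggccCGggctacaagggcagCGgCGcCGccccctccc

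All 5 genes were found in the RefSeq promoter table by symbol, with 9 starts in all. The Tet2 sequence held 51 CpG in 250 bases, more than 99.9% of the 32851 promoter entries, whose median was 6. It is also internally repeated: a stretch of 43 bases recurs exactly 84 bases further on. The first Dnmt3a start had 38 CpG (more than 98.1% of entries). The second, 0.18 kb downstream and not shown, had 40 (more than 98.7%), and its sequence overlaps that of the first in part. The last Dnmt3a start, 84.8 kb downstream of the first, had only 15. Tet1 also had 15 (more than 72.7%) and Dnmt3b 21 (more than 83.7%). Dnmt3l, whose sequence is not shown, had 5, 4 and 3 CpG before its 3 starts, all below the median. Whether the CpG number before a start goes with the number of peaks in a window was not tested. Searched on both strands, the POU octamer ATTTGCAT was present in 0 of the 9 upstream sequences (1.60% of all entries) and the Sox-type motif CCATTGT in 0 of 9 (3.02% of all entries).

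The Tet1 window, 180 kb of mm9 chromosome 10 (62215000 to 62395000), held 8 peaks, and 7 of them were packed into 14.1 kb. On chromosome 10 these 7 were, in order, 62347065 to 62347358 with a score of 8.04, 62353369 to 62353625 with 3.96, 62354473 to 62354795 with 5.24, 62355352 to 62355989 with 9.64, 62358299 to 62358665 with 12.4, 62359591 to 62360210 with 8.24, and 62360758 to 62361157 with 7.83. The score is the authors' own number per peak, of unnamed scale, and is used here only to rank peaks within their list, whose median score was 5.22 and whose upper quartile was 7.73. Of the 7 peaks, 5 lay above that upper quartile, and the fourth to the seventh, which form the far end of the group, were all among these 5. The strongest, scoring 12.4, ranked 507 in the list, above 90.1% of the peaks, and was the only one of the 16 to reach a score of 10, a level reached by 14.5% of all peaks. Peaks of equal score were all given the best rank among them, and 6 peaks of the list share this exact score.

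The 8th peak of the Tet1 window stood apart. It lay at 62255099 to 62255474, 91.6 kb before the group, and scored 2.02, above 1.60% of the list. The separate peak was thus close to the lowest scores that the list contains, below each of the 7 in the group, whose weakest scored 3.96.

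Within the Tet1 group, unoccupied gaps were short. The first peak was separated by 6.01 kb from the second, and the other gaps were 0.847, 0.556, 2.31, 0.925 and 0.547 kb. Across the whole list, the median distance from a peak to its nearest neighbour was 51.6 kb, and 29.8% of peaks had one less than 12500 bp away. Peaks of a group were picked for lying that close, so their short gaps are no separate result. Peaks took up 20.6% of the 14.1 kb. When peaks less than 12500 bp apart were joined, the autosomes held 4243 groups or single peaks, of which only 625 had more than 1 peak. Of the 4243, 6 (0.141%), the Tet1 group among them, had at least 7 peaks. The Tet1 window was set with its peaks known, so this share is no measure of chance. The Tet1 group was the shortest of the 6, the next shortest being a group of 8 peaks over 15.0 kb of chromosome 9 (110848091 to 110863061). Its median score of 8.04 was exceeded among the 6 only by that of the 19 peaks at the start of chromosome 9 (2999953 to 3038171), which was 19.5.

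The Tet2 window, 185 kb of chromosome 3 (133075000 to 133260000), held 5 weaker peaks. The first lay at 133181648 to 133181956 and scored 2.41, above 3.58% of the list. The next 3 lay within 1.85 kb: 133195498 to 133196041 with a score of 5.82, 133196602 to 133196838 with 3.92, and 133197068 to 133197350 with 5.84. The last, at 133206810 to 133207196, scored 3.92. The highest Tet2 score, 5.84, ranked 2070 in the list, so the 2 strongest Tet2 peaks lay just above the list's median and the other 3 below it. Both values of 3.92 are 1 exact number that 59 peaks of the list share, and 96 peaks share the exact score of the peak at 133195498.

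The last 4 peaks of the Tet2 window formed a group of 11.7 kb under the same joining distance. Of the 4243 autosomal groups and single peaks, 50 (1.18%) had at least 4 peaks and 625 had more than 1. This share too is no measure of chance. Peaks took up 12.4% of this group, less than in the Tet1 group, because 9.46 kb separated the last peak from the others. The first peak was left out by a gap of 13.5 kb, slightly above the joining distance. The Tet2 group was therefore a close triplet with 1 outlying peak. In the Tet1 group the widest gap, 6.01 kb, lay between its first peak and the next.

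**Figure D1:**
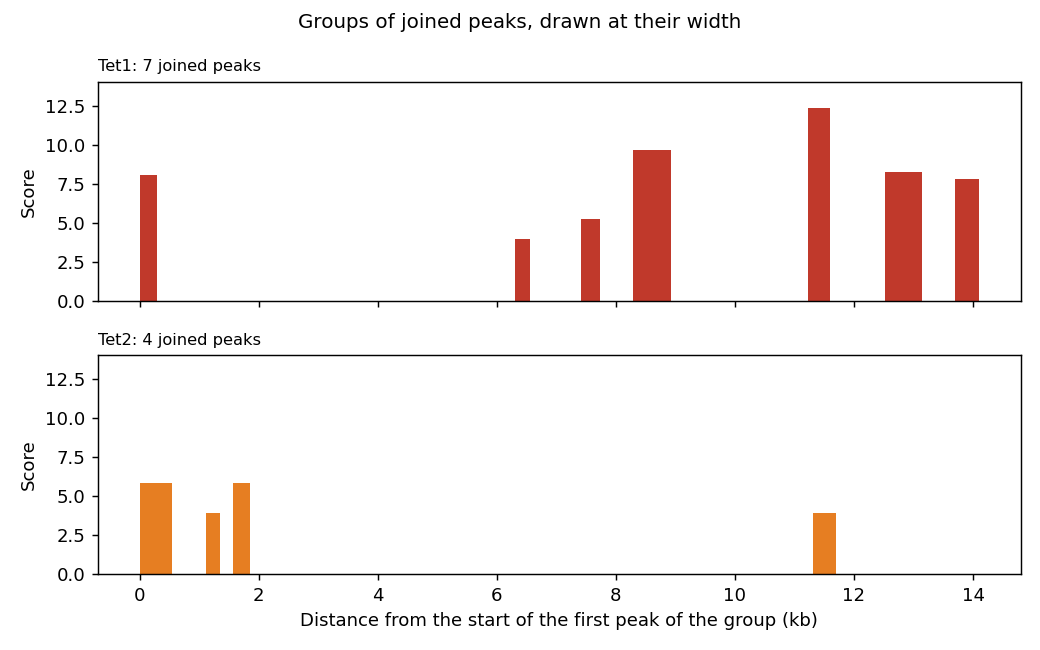
Peaks of the Tet1 and the Tet2 group, each bar drawn at its true width on a horizontal axis in kb from the start of the group's first peak, with the authors' score as its height. Tet1 has 7 peaks over 14.1 kb with scores from 3.96 to 12.4, and Tet2 has 4 peaks over 11.7 kb with scores from 3.92 to 5.84.

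The Dnmt3 windows held fewer peaks than the Tet windows. The Dnmt3a window, 210 kb of chromosome 12 (3755000 to 3965000), held 2 single peaks of moderately high score: 3806229 to 3806632 scored 9.83 and ranked 766, and 3889972 to 3890287 scored 8.36 and ranked 1074. In the list, 37 peaks have the exact score of the first and 12 that of the second. Both Dnmt3a peaks exceeded the upper quartile of the list and every Tet2 score. Their midpoints were 83.7 kb apart, so they formed no group. Dnmt3a is transcribed from alternative starts, and the shorter protein made from an internal start is abundant in ES cells. Whether either peak lies at one of these starts was not tested.

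The Dnmt3l window, 125 kb of chromosome 10 (77455000 to 77580000), held 1 peak at 77471801 to 77472278 with a score of 4.97, just below the list's median. The Dnmt3b window, 140 kb of chromosome 2 (153425000 to 153565000), held 0 peaks. A peak absent from the list is one that did not pass the authors' threshold, at a depth that is unknown, and says no more about binding at Dnmt3b. The Dnmt3b window lay in 1.05 Mb without a peak, with the nearest ones 228.1 kb before and 684.3 kb after its edges. Chromosome 2 as a whole held 2.11 peaks per Mb, and whether such a stretch is unusual was not tested. Within 1 Mb of its edges lay 19 peaks, against 1 to 7 around the other 4 windows.

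**Figure D2:**
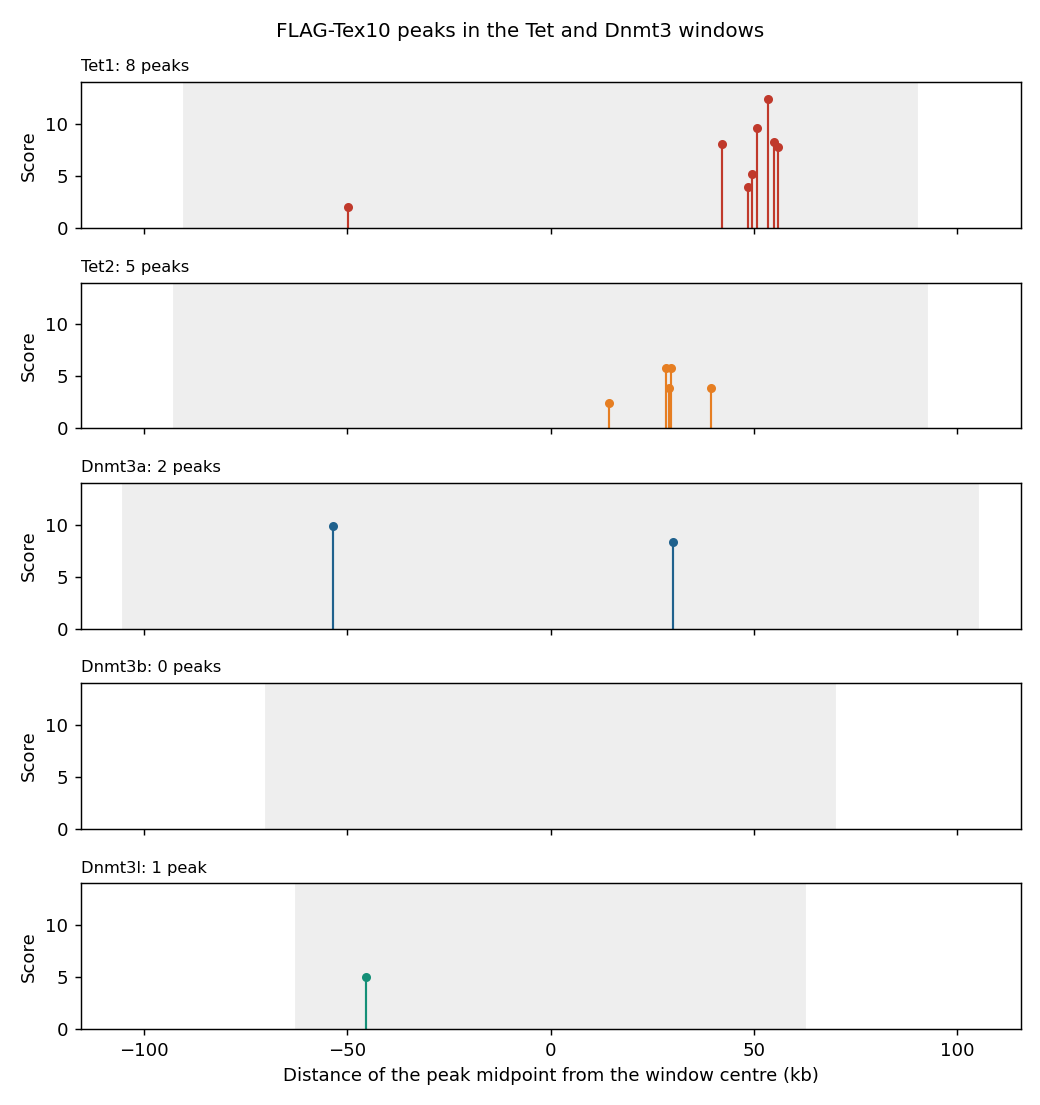
Peaks in the 5 windows, shown as stems at the distance of the peak midpoint from the window centre (kb) with the authors' score as height; grey marks the extent of each window. The Tet1 and Tet2 peaks lie mostly to the right of the centre in tight groups, Dnmt3a has 2 separate peaks with scores of 9.83 and 8.36, Dnmt3l has 1, and Dnmt3b has 0.

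The peaks nearest to the windows on the outside lay 91.1 to 1841 kb from their edges. The autosomes as a whole held 0.207 peaks per 100 kb, and whether these distances are unusual was not tested. Around Tet1 they were 100.8 kb before (62113964 to 62114247, score 1.95) and 91.1 kb after (62486055 to 62486690, score 6.42). Around Tet2 they were 320.1 kb before (132754696 to 132754923, score 4.18) and 1841 kb after (135101293 to 135101753, score 4.91). The 5 Tet2 peaks were thus the only ones in 2.35 Mb of chromosome 3, which as a whole held 1.64 peaks per Mb. Around Dnmt3a the nearest peaks were 182.7 kb before (3572027 to 3572254, score 4.71) and 393.4 kb after (4358449 to 4359293, score 12.9). Around Dnmt3l they were 124.4 kb before (77330323 to 77330563, score 8.77) and 273.9 kb after (77853880 to 77854121, score 5.66). For Dnmt3b the nearest peaks, at the distances given above, were 153196662 to 153196891 with a score of 4.98 and 154249346 to 154249710 with 8.36. Widening each window by 50 kb on both sides added 0 peaks, and narrowing it by 25 kb removed the Dnmt3l peak alone. The window edges were set with the peaks known, so these small changes show little about how far the counts depend on the edges.

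Together the Tet windows held 13 peaks in 365 kb, or 3.56 per 100 kb, and the Dnmt3 windows 3 peaks in 475 kb, or 0.632 per 100 kb. Both lay above the 0.207 peaks per 100 kb of the autosomes as a whole, although Dnmt3b alone was at 0. The counts were also set against autosomal tiles, which are adjoining stretches of the same length as each window laid from the start of each chromosome. At the length of the Tet1 window 23% of tiles held at least 1 peak and 0.102% (14 of 13725) at least 8. At the length of the Tet2 window 23.5% held at least 1 and 0.704% (94 of 13354) at least 5. Counts as high as those of the Tet windows were thus rare among tiles, but tiles were fixed in place, whereas the windows were set with the peaks known, so these shares are no measure of chance.

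For the Dnmt3 windows the tiles gave ordinary shares. At the Dnmt3a length 25.7% of tiles held at least 1 peak and 9.77% at least 2. At the Dnmt3l length 17.5% held at least 1. At the Dnmt3b length 19% held at least 1, so a window without a peak, like that of Dnmt3b, was the usual case. The difference between the Tet and the Dnmt3 windows was not tested, since both were chosen with these counts in view.

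**Figure D3:**
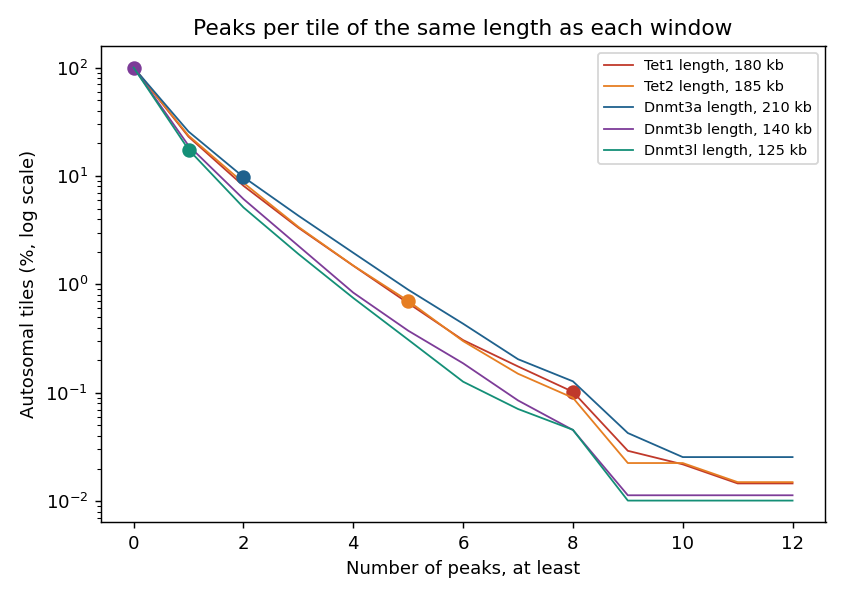
Share of autosomal tiles (percent, log axis) that hold at least the number of peaks on the horizontal axis, 1 line for each window length, with a dot at the number found in the window itself. The Tet1 dot lies at 8 peaks and 0.102% and the Tet2 dot at 5 peaks and 0.704%, whereas Dnmt3a lies at 9.77%, Dnmt3l at 17.5% and Dnmt3b, with 0 peaks, at the start of its line.

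The Tet windows differed in score. The Tet1 peaks had a median score of 7.94, above the upper quartile of the list (7.73), and the Tet2 peaks one of 3.92, below the list's median of 5.22. Pooled, the 13 Tet peaks had a median of 5.82, and 8 of the 13 lay above the median of the list. The 3 Dnmt3 peaks had a median of 8.36, from 4.97 to 9.83. Over all 16 peaks the median was 5.83, against 5.22 in the list, and 10 of the 16 scored at least 5, a level reached by 51.1% of the list. At that level were 6 of 8 Tet1 peaks and 2 of 5 Tet2 peaks. The 16 peaks ranged in score from 2.02 to 12.4 and in rank from 507 to 5106, far below the strongest of the list, which scored 432.

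The peaks were 237 to 638 bp wide, with a median of 371.5 bp against 314 bp in the list, and 11 of the 16 were wider than the list's median. The widest was the Tet1 peak at 62355352, and the second widest, 620 bp, was the Tet1 peak at 62359591. These 2 were not the highest: the Tet1 peak with the top score was 367 bp wide. In all, the 16 peaks covered 6233 bp, of which 3275 bp lay in the Tet1 window, 1760 bp in the Tet2 window, 720 bp in the Dnmt3a window and 478 bp in the Dnmt3l window.

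**Figure D4:**
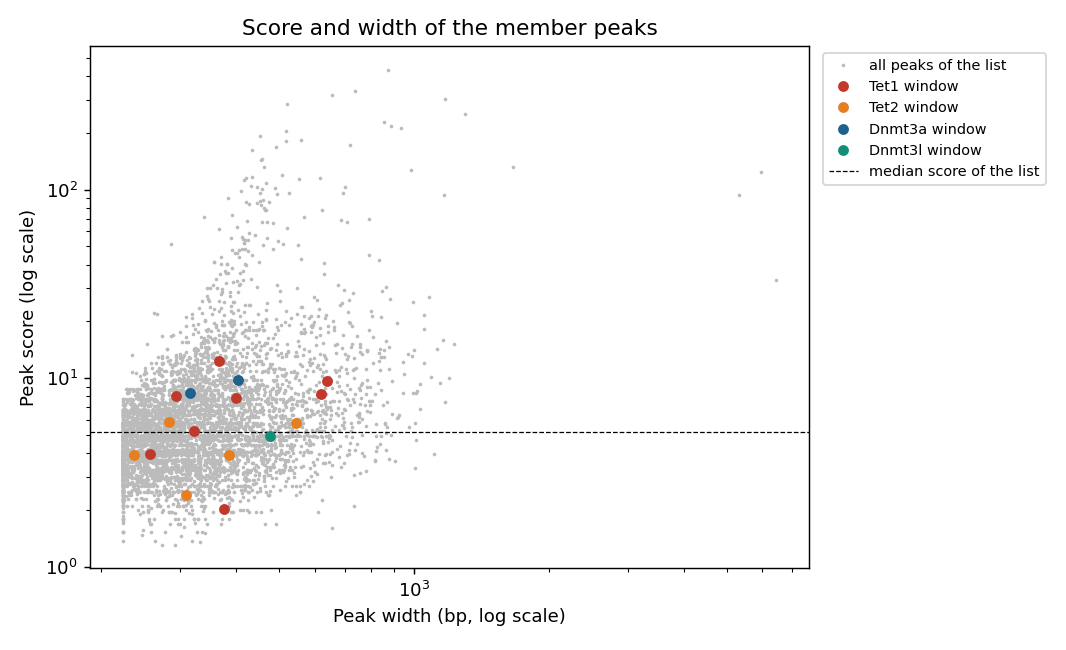
Score against width (bp) of all 5189 peaks in grey and of the 16 peaks of the Tet1, Tet2, Dnmt3a and Dnmt3l windows in colour, both axes logarithmic; the dashed line is the median score of the list, 5.22. The coloured points lie within the main cloud of peaks, between 237 and 638 bp and between scores of 2.02 and 12.4.

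Whether the windows also hold parts of neighbouring genes was not tested. In the RefSeq gene order of GRCm38.p6, used here for the order alone, the protein-coding neighbours of Tet1 are Ccar1, a coactivator of transcription, and Slc25a16, a mitochondrial carrier. Those of Tet2 are Ppa2, a mitochondrial pyrophosphatase, and Cxxc4, whose product binds the Tet2 protein. Dnmt3a stands between Dtnb, a dystrobrevin gene, and Pomc, the precursor of several peptide hormones. Dnmt3b lies between Commd7 and Mapre1, which encodes a protein of microtubule ends, and Dnmt3l between Aire, which drives tissue antigens in the thymus, and Icosl, a ligand of T cell costimulation. Which of these genes a peak lies nearest to was not tested. Tet3, Dnmt1, Uhrf1, Tdg, Mbd4, Gadd45a and Dppa3, other genes of DNA methylation and its removal, were not analysed here, since no mm9 position was at hand for them.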

How the data were processed

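The measurement is a ChIP with an antibody to FLAG in J1 ES cells with tagged Tex10. The authors deposited a list of peaks with a score each; no header names the scale of this deposited score, and the peak caller, its control and its threshold are not given in the sources used here. Per the submitters' processing notes positions are on mm9; the tools they name, with no role, are bedtools 2.18.1, SAMtools 0.1.19, Bowtie 1.0.0 and FastQC 0.10.1. The list holds no read counts, so depth is unknown. Neither the IgG nor the input library was analysed here.

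Peaks overlapping the 5 windows by at least 1 bp were taken, with starts written 1-based. Peaks less than 12500 bp apart were joined. Tiles of each window's length were laid over the 19 autosomes with mm9 lengths from GenomeInfoDb 1.38.1, assembly gaps included. The scripts ran under Python 3.11.15 (pandas 2.3.3, numpy 2.4.6, matplotlib 3.10.9), and the counting was tested on simulated peak lists. Promoter sequences came from RefSeq (GRCm38.p6). No test was made. The windows, and the lists and settings used with them, were chosen with earlier results of these data known. By rule all 5 genes, every peak in their windows, the nearest peak outside each edge and the RefSeq neighbours were named; other groups of peaks named for comparison were chosen after their values were seen. Alternatives were score thresholds of 5 and 10, window edges, overlap by midpoint, joining distances and tile placement.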

Additional observations from a re-analysis of the deposited data

How the results depend on the processing

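The number of peaks in the 5 windows, 16, was 15 or 16 under 4 alternatives (windows widened or narrowed, overlap by midpoint, peaks under 500 bp apart joined), and their median score stayed between 5.83 and 5.84. For the widened and narrowed windows this shows little, since the edges were set with the peaks known. With a score of at least 5 the number was 10 (6 at Tet1, 2 at Tet2, 2 at Dnmt3a and 0 at Dnmt3l). With a score of at least 10 it was 1, a Tet1 peak of 12.4, which is then also the median, and 0 groups of joined peaks were left; these follow from the thresholds themselves. Tet1 and Tet2 each had 1 group, of 7 and 4 peaks, and still had 1 each, of other sizes in part, when peaks under 5 kb apart were joined (6 and 3 peaks), under 25 kb (7 and 5) or with a score of at least 5 (6 and 2). The share of tiles with at least 8 peaks, 0.102% at the Tet1 length, was 0.0656% with tiles shifted to start midway. From the first to the last peak of each autosome, a setting chosen after seeing the data, it was 0.0829%. On chromosome 10 alone it was 0%, since no tile there held all 8 peaks of the Tet1 window together. At a score of at least 10, where Tet1 keeps 1 peak, 4.68% of tiles held at least 1. The share of tiles matching Tet2 ranged from 0.348% (chromosome 3 alone) to 0.809%. Dnmt3a ranged from 6.76% to 9.95% and Dnmt3l from 17.3% to 17.9%. With a score of at least 10, no such share was computed for Tet2, Dnmt3a and Dnmt3l, nor at any setting for Dnmt3b, because any tile holds at least 0 peaks. A value counted as moved when it changed by over 1.5 times. No paired analysis was possible because no group holds more than 1 library. Depth limits the list, since weaker peaks are not in it.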
